A study of Homo sapiens with 12 samples.

Results

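The comparison covers 22Rv1, a human prostate carcinoma cell line, with CENPA depleted by shCENPA1, the weaker of 2 CENPA-targeted shRNAs, against cells with a nontargeting shRNA (shNT). It takes 4 of the 6 libraries of the series, 2 for each shRNA, which are 8 of its 12 sequencing runs, since every library was run in lanes 7 and 8. Both groups carried the shRNA in a lentiviral, doxycycline-inducible pTRIPZ vector, were selected with puromycin, and received doxycycline at 2 µg/ml for 72 h before mRNA was sequenced with a stranded kit. shNT therefore shares the vector, the selection and the drug, and differs in the hairpin. The remaining 2 libraries, with shCENPA2, shared the fit and its estimate of the spread, and are compared below where shCENPA1 differed from them. Nothing in the labels says whether the libraries of a group came from separate cultures, so p-values measure only the spread between these libraries. The cells are transduced populations of 1 line, and no clone is named.

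CENPA is the histone H3 variant that marks the centromere, where the kinetochore forms and chromosomes are attached to the spindle. Genes of mitosis are transcribed in waves late in the cell cycle, many of them through a cell cycle genes homology region (CHR) close to the start of transcription, often with CCAAT boxes upstream, while genes of DNA replication more often use E2F sites. Such genes are high in dividing cells and low in resting ones.

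Levels are log2 RPKM, the deposited logarithm of reads on a gene scaled to gene length and library size, averaged over the lanes of a library. CENPA stood at 2.46 and 2.18 in the shNT libraries and at 0.50 and 0.58 in the shCENPA1 libraries. The groups did not overlap, which held for 8343 of the 14624 genes tested. The CENPA difference was -1.78 ± 0.16 on the log2 scale (SE, n = 2 libraries per group, limma adjusted p = 0.000287), a knockdown of 70.9% ± 3.42 (SD over the 4 pairs of libraries). The shCENPA2 libraries stood lower still, at -0.47 and -0.41, a knockdown of 85.3% ± 1.71, and the difference between the shRNAs was -0.98 ± 0.16 (limma adjusted p = 0.0209). CENPA lies at chr2:26764289-26801067 (GRCh38, plus strand). The libraries held 79172294 to 110222223 reads on genes in these groups, and the CENPA values rest on 226 to 1186 reads.

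Of 14624 genes tested, 388 changed at least 2-fold with an adjusted p under 0.05 (limma, Benjamini-Hochberg), which is 2.65% of the genes, and 69.1% of them were lower with shCENPA1. The 268 lower genes (1.83%) had a median of -1.25 and the 120 higher genes (0.821%) a median of 1.29, against 0.0030 for all genes tested. Most changes were moderate, since 218 of the lower and 87 of the higher genes lay between 1 and 1.5. The called groups lay at different levels. In shNT, the lower genes had a median level of 2.33 log2 RPKM, close to that of all genes (2.36), whereas the higher genes had a median of -0.92, and 80 of the 120 lay below 0. With shNT and shCENPA1 alone in the fit the count was 427. Without library 2 of shCENPA1 it was 252, with 57 higher genes, and without library 1 it was 281, with 73 higher genes. When each shNT and shCENPA1 library was left out in turn, 149 lower and 44 higher genes kept their call in all 4 fits.

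**Figure D1:**
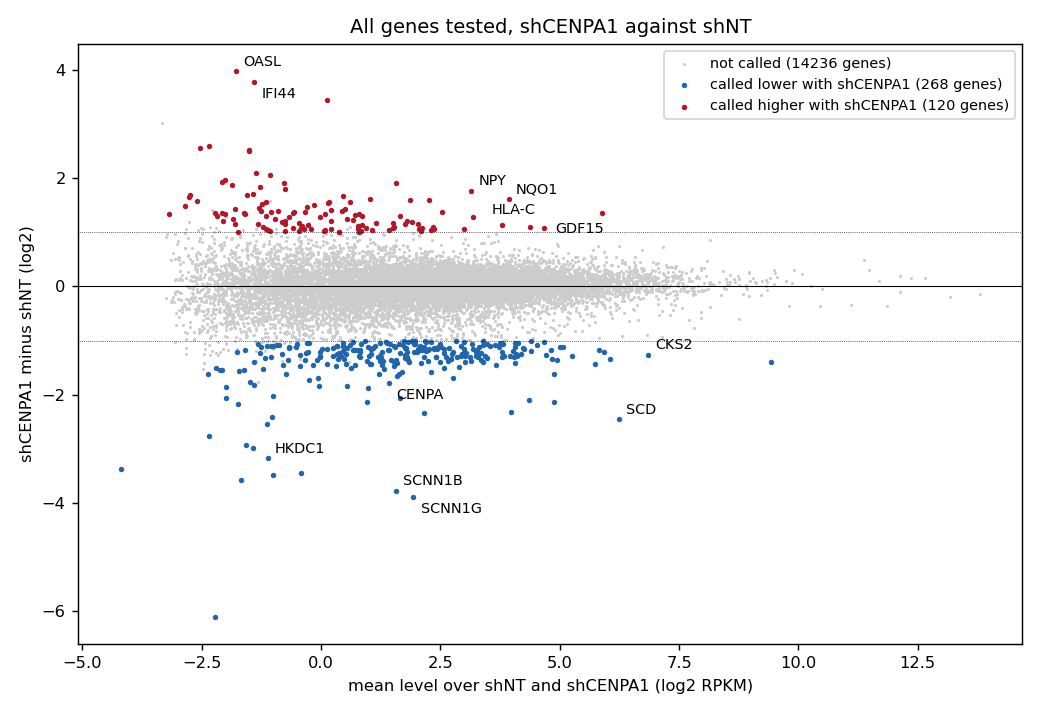
Each point is 1 of the 14624 genes tested, with its mean level over the shNT and shCENPA1 libraries (log2 RPKM) on the x axis and the shCENPA1 minus shNT difference (log2) on the y axis, and dotted lines at 2-fold. The 268 lower genes spread over the whole range of levels, while most of the 120 higher genes sit at low levels.

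The largest falls at a solid level were those of 2 subunits of the epithelial sodium channel, which carries sodium across the apical membrane of epithelia. SCNN1G stood at 3.96 and 3.81 in shNT and at 0.070 and -0.085 in shCENPA1, a 14.8-fold difference (-3.89 ± 0.14, limma adjusted p = 2.72e-06). SCNN1B stood at 3.48 and 3.43 in shNT and at -0.49 and -0.16 in shCENPA1 (-3.78 ± 0.16, limma adjusted p = 6.21e-06). Each gene fell far outside the spread between libraries, and the pair are neighbours on chromosome 16 (SCNN1G at chr16:23182745-23216883, SCNN1B at chr16:23278231-23381294). Of the other 9 members of the sodium channel list that were tested, none was called by limma, with 5 at an unadjusted p under 0.05 and 1 called by voom. SCD, the desaturase that makes monounsaturated fatty acids, was among the most abundant genes to fall, from 7.47 and 7.46 to 5.08 and 4.94, which is 5.5-fold (-2.46 ± 0.09, limma adjusted p = 2.72e-06). FZD4, a Wnt receptor, went from 5.15 and 5.10 to 2.86 and 2.77 (-2.31 ± 0.09). POLR1E, a subunit of RNA polymerase I, went from 5.38 and 5.41 to 3.37 and 3.24 (-2.09 ± 0.09), and it was the only called member among 34 genes of ribosome biogenesis, whose median was -0.064. The falls of these abundant genes were called under every alternative tried.

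LINC00930, a long noncoding RNA, had the lowest fold change of all, on 295 and 270 reads in shNT and 2 and 11 reads in shCENPA1. Its ratio rests on those few reads and is given no further precision. KIAA1024 went from 1.29 and 1.31 to -1.90 and -2.40 (-3.45 ± 0.24), and LRRC36 from 0.55 and 0.92 to -2.78 and -2.73 (-3.49 ± 0.23). In each gene the groups lay far apart relative to the gaps within them. MAGEC2, a germline antigen, PSCA, a prostate surface antigen, and HKDC1, a hexokinase, differed by -3.57, -2.99 and -3.18, but rest on 15 to 66 reads in shCENPA1. Their calls were lost without library 1 of shCENPA1 (adjusted p = 0.0519, 0.0942 and 0.0881) and without library 2 (0.0965, 0.0702 and 0.177). HAPLN2 differed by -2.54 ± 0.25.

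Reads on the 71-base hairpin MIR30A also fell, from 10.20 and 10.06 to 8.65 and 8.81 (-1.40 ± 0.23, limma adjusted p = 0.00653), which in an mRNA library is no measure of the mature miRNA. That call was lost without library 1 (adjusted p = 0.0844) or library 2 (0.0865) of shCENPA1. Whether the MIR30A reads came from the gene itself or from the shRNA vector was not tested. Abundant protein-coding genes that fell included CKS2, a partner of cyclin-dependent kinases, at -1.26 ± 0.09. SLC7A5, a transporter of large neutral amino acids, differed by -1.34 ± 0.12, and APLN, a peptide hormone, by -1.22 ± 0.09.

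**Figure D2:**
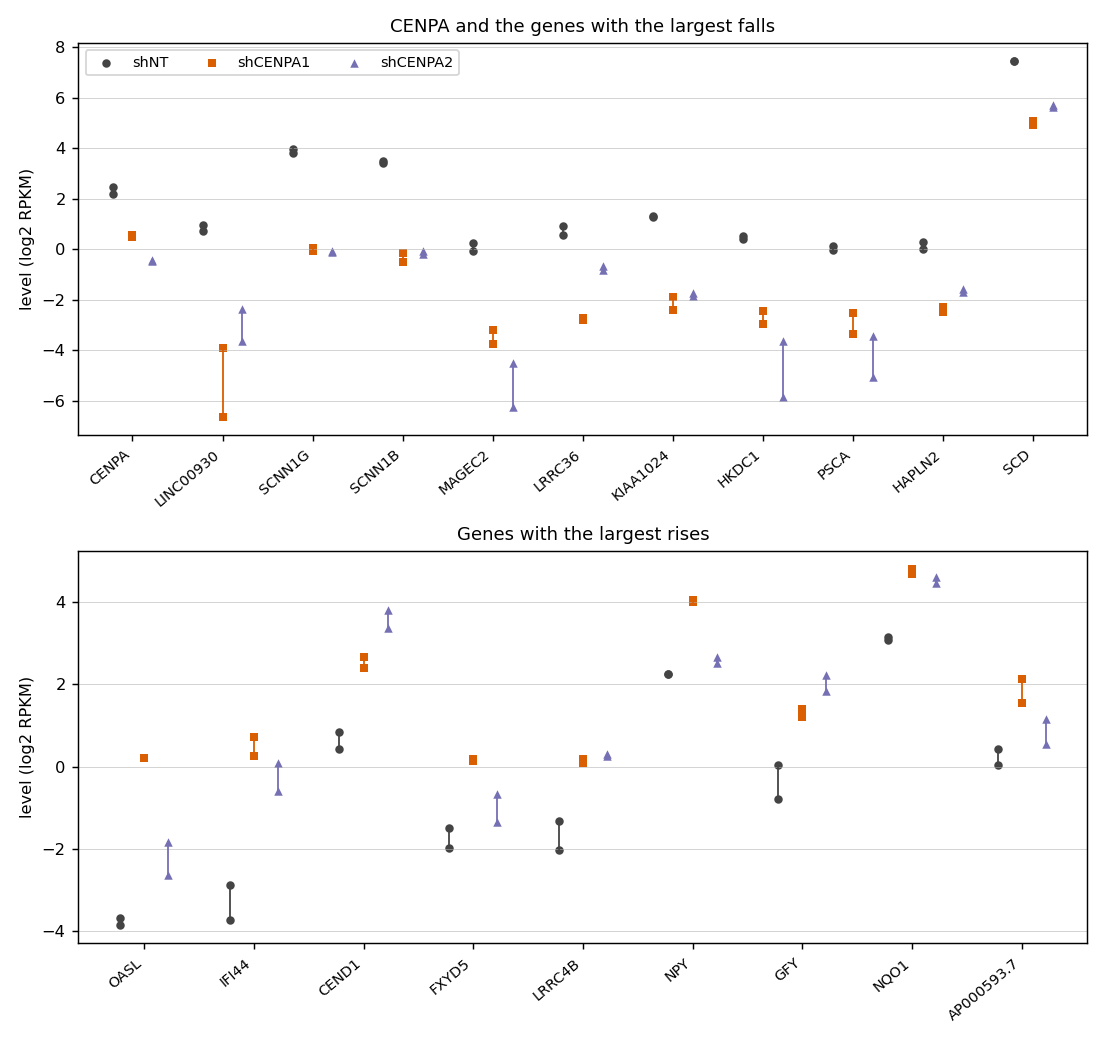
Levels (log2 RPKM) of CENPA and of the genes with the largest changes, with 1 point per library, joined within a group, for shNT (circles), shCENPA1 (squares) and shCENPA2 (triangles). In every gene shown, the shCENPA1 and shNT libraries stand apart, which the rule that chose the genes other than CENPA required. OASL, NPY and LRRC36 are among the genes with shCENPA2 libraries between the other groups.

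Genes of mitosis fell as a broad group by similar amounts. Among the mitotic motors and spindle factors 22 of 26 genes were called lower, against 1.83% of all genes, and the list had a median of -1.19. Among spindle checkpoint and chromosomal passenger genes 11 of 15 fell (median -1.21), among outer kinetochore genes 10 of 19 (median -1.11), and among G2/M cyclins, phosphatases and subunits of the anaphase promoting complex 12 of 22 (median -1.05). No member of these lists rose. The list medians in the shCENPA1 libraries taken singly ran from -0.95 to -1.22, so both libraries showed the fall. In bulk RNA, fewer cells in mitosis and less mitotic mRNA per cell cannot be told apart.

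CEP55, a factor for the final separation of daughter cells, stood at 3.63 and 3.58 in shNT and at 1.88 and 1.96 in shCENPA1 (-1.69 ± 0.11, limma adjusted p = 6.7e-05). HMMR, a receptor and spindle protein, stood at 4.36 and 4.42 against 2.92 and 2.96 (-1.45 ± 0.09, limma adjusted p = 7.65e-05). KIF11, the kinesin that pushes spindle poles apart, stood at 4.44 and 4.46 against 3.13 and 3.16 (-1.30 ± 0.09, limma adjusted p = 9.21e-05). These are the called lower genes with the smallest adjusted p among those whose promoter holds both a CHR and a CCAAT box. ASPM (-1.57), DLGAP5 (-1.49) and KIF14 (-1.48), which shape the spindle, BUB1B (-1.36) and TTK (-1.34), kinases of the checkpoint, and SGO1 (-1.43) and SGO2 (-1.39), which guard cohesion at the centromere, fell as much. Cyclins CCNA2 and CCNB2 fell by 1.28 each, the phosphatase CDC25C by 1.31 and the kinase NEK2 by 1.29. All calls in this paragraph held with each library left out.

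The 3 promoters are shown as examples chosen to hold both motifs. Both were present in 26 of 50 promoters (52.0%) of called kinetochore and mitosis genes, against 4.67% of the promoters of all genes tested. Each runs 5′ to 3′ over 300 bases on the gene's strand, from 250 bases before the start of transcription to 50 after it, from RefSeq on GRCh38.p14, with CHR (TTTGAA or TTCGAA) and CCAAT matches of either strand in capitals. They are CEP55 at chr10:93496362-93496661 (plus strand), HMMR at chr5:163460382-163460681 (plus strand) and KIF11 at chr10:92592880-92593179 (plus strand).
CEP55: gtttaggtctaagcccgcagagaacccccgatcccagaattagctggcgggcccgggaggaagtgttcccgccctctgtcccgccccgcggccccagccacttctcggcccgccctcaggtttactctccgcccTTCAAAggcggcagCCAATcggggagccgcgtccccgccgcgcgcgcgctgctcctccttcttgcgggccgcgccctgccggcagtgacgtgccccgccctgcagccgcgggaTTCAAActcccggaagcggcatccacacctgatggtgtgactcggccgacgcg
HMMR: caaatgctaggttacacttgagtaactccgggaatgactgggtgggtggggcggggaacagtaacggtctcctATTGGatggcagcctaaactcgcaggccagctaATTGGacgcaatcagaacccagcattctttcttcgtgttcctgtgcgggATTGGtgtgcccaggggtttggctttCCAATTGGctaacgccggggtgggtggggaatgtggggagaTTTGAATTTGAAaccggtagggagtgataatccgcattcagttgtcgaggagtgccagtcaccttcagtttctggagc
KIF11: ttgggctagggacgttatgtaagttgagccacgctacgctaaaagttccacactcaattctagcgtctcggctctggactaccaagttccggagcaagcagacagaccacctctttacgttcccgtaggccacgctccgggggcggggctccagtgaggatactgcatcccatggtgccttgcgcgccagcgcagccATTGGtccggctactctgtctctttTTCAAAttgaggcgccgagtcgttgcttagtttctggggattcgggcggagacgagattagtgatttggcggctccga
In KIF11 the CHR begins 28 bases and the CCAAT box 53 bases before the start. In HMMR a pair of CHR copies begin 28 and 22 bases before it, below 5 CCAAT matches, of which 2 overlap. In CEP55 1 CHR begins 3 bases before the start and another lies further upstream.

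RefSeq gave a promoter for 205 of the 268 lower genes (76.5%), 84 of the 120 higher genes (70.0%) and 10662 of the 14624 genes tested (72.9%). That is under 80%, so the shares are void as a check of all called genes and describe the matched genes alone. A CHR was present in 36.1% of the 205 lower promoters, 10.7% of the 84 higher promoters and 10.8% of all 10662. A CCAAT box was present in 59.5%, 38.1% and 36.9%, and an E2F site (TTTCCCGC, TTTGGCGC, TTTCGCGC or TTTGCCGC) in 13.7%, 1.19% and 5.3%. Over the whole table of 27305 promoters, the shares were 16.6%, 35.7% and 3.33%. The lower promoters thus held the CHR more often than the matched genes at large, and the higher promoters did not.

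The CHR share differed between groups of lower genes, a difference that was not tested. Of 50 called genes from the kinetochore and mitosis lists, 35 held a CHR (70.0%), 37 a CCAAT box (74.0%) and 5 an E2F site. Of 17 called genes from the replication and nucleotide lists, none held a CHR, 11 held a CCAAT box (64.7%) and 7 an E2F site (41.2%). Members of the cell division, replication and repair lists that were not called held a CHR in 41 of 199 cases (20.6%) and an E2F site in 38 (19.1%), beside 47 (48.5%) and 21 (21.6%) of the 97 called members. In lower genes, 63 of 91 CHR matches (69.2%) began within 50 bases of the start, against 264 of 1178 (22.4%) in the other genes. A match is a run of letters and not a shown binding site. The shares of the ISRE core (TTTCNNTTT), sterol element (TCACNCCAC), AP-1 site (TGANTCA), amino acid element (TGATGCAA) and E-box (CACGTG) in lower promoters were 7.8%, 0.488%, 4.88%, 0.0% and 7.8%, against 6.69%, 1.1%, 4.12%, 0.46% and 10.2% of the matched genes tested.

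**Figure D3:**
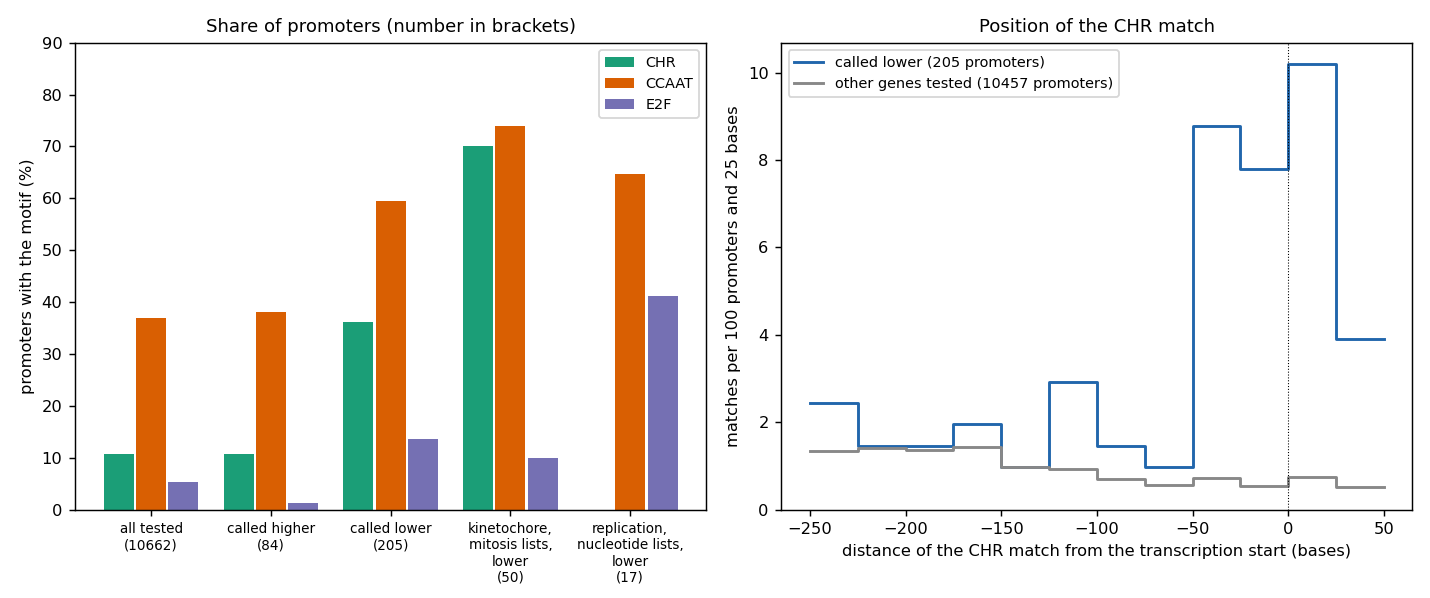
Left, the percentage of promoters with a CHR, a CCAAT box or an E2F site in 5 sets of genes, with the number of promoters in brackets. Right, CHR matches per 100 promoters in bins of 25 bases along the promoter, which in the 205 lower promoters crowd around the start of transcription and in the other 10457 do not.

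The centromere itself was less evenly affected. Of the 10 genes that deposit CENPA, 4 fell (median -0.59, 10 of 10 below 0). Besides CENPA, these were HJURP, the chaperone of CENPA, from 3.34 and 3.37 to 1.86 and 2.10 (-1.38 ± 0.12, limma adjusted p = 0.000266), PLK1, a mitotic kinase that licenses the deposition (-1.15 ± 0.12), and OIP5, a subunit of the Mis18 complex (-1.06 ± 0.12). OIP5 was not called without library 2 of shCENPA1 (-0.98, adjusted p = 0.015), where it passed on p and missed on fold. Of 17 inner kinetochore genes 4 fell (median -0.74), namely CENPI (-1.51), CENPU (-1.42), CENPK (-1.22) and CENPH (-1.19). CENPC, which binds the CENPA nucleosome, differed by -0.10 ± 0.10, and CENPB, which binds centromere DNA, by 0.13 ± 0.10, and neither passed (limma adjusted p = 0.60 and 0.50). In the outer kinetochore CENPF (-1.40), KNL1 (-1.40), NUF2 (-1.38) and SKA3 (-1.34) fell.

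In replication forks and in recombination, every tested member lay below 0 and some passed the test. All 36 genes of replication forks and polymerases lay below 0 (median -0.76), with 11 called lower and 28 lower at an adjusted p under 0.05 without the fold limit. All 33 genes of homologous recombination and the Fanconi pathway also lay below 0 (median -0.73), with 13 called. By contrast, 16 of 30 genes of other repair pathways lay below 0, the median was -0.035, and the only called members were POLQ (-1.44), the polymerase of end joining at microhomologies, and NEIL3 (-1.41), a glycosylase. In origin licensing 6 of 17 fell, among them MCM10, from 2.73 and 2.88 to 1.33 and 1.45 (-1.41 ± 0.13, limma adjusted p = 0.00034), CDC6 (-1.17), ORC6 (-1.12) and ORC1 (-1.11).

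At the forks, CLSPN, an adaptor of the replication checkpoint, fell most (-1.57 ± 0.18, limma adjusted p = 0.000955), followed by TICRR (-1.35), GINS4 (-1.21) and WDHD1 (-1.17). TICRR and WDHD1 were not called without library 2 of shCENPA1 (-1.34, adjusted p = 0.0543, and -0.99, adjusted p = 0.04). In recombination MND1 (-1.51), BRIP1 (-1.46), EXO1 (-1.38) and XRCC2 (-1.37) fell. In nucleotide synthesis 4 of 14 fell, among them RRM2, the small subunit of ribonucleotide reductase (-1.25), TYMS (-1.11) and TK1 (-1.01). TYMS and TK1 slipped under 2-fold without library 1 of shCENPA1 (-0.97, adjusted p = 0.0139, and -0.93, adjusted p = 0.0167), and TK1 also without library 1 of shNT (-0.94, adjusted p = 0.00214).

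Condensin, cohesin and topoisomerase genes had 6 of 21 lower (median -0.48), among them TOP2A, the topoisomerase that untangles chromosomes, from 5.45 and 5.58 to 4.23 and 4.12 (-1.34 ± 0.09, limma adjusted p = 9.21e-05), ESCO2 (-1.32), NCAPG (-1.31) and NCAPH (-1.21). The proliferation marker MKI67 went from 4.10 and 4.10 to 2.89 and 2.51 (-1.40 ± 0.13). UBE2C, which marks mitotic proteins for destruction, differed by -1.13 ± 0.11. EZH2, the methyltransferase of Polycomb, differed by -0.73 ± 0.11 (limma adjusted p = 0.00408), short of 2-fold.

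Some regulators of the cell cycle were called, against 1.83% lower among all genes. Of 21 E2F and G1/S regulators 3 fell, E2F8 (-1.53), E2F7 (-1.44) and E2F1 (-1.05), of which the first 2 are repressors and the third an activator (list median -0.25). E2F7 was lost without library 2 of shCENPA1 (-1.18, adjusted p = 0.0662), and E2F1 without library 1 of shCENPA1 (-0.98, adjusted p = 0.0435) or of shNT (-0.997, adjusted p = 0.00452). Of 9 FOXM1 and MuvB regulators 3 fell (list median -0.61), FOXM1, MYBL2 and MYBL1 (-1.28, lost without library 2 of shNT, adjusted p = 0.0881, or of shCENPA1, 0.0865). FOXM1, an activator of mitotic genes, went from 4.65 and 4.58 to 3.45 and 3.53 (-1.13 ± 0.12, limma adjusted p = 0.000683). MYBL2, its partner, differed by -1.06 ± 0.20, a call lost without either shCENPA1 library (adjusted p = 0.108 and 0.112). The CDK inhibitor list had no riser among 8 genes, and its only called member, CDKN3 (-1.33), is a phosphatase of CDKs. Among the 28 tested genes of a hand-written list of p53 targets 1 was called, GDF15, which rose, and the median was -0.048. Targets of p53 outside that list were not counted. Over all 19 lists of cell division, replication, repair and their chromatin, 115 of 351 genes fell, none rose and the median was -0.63, which leaves 153 lower genes in none of these lists.

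**Figure D4:**
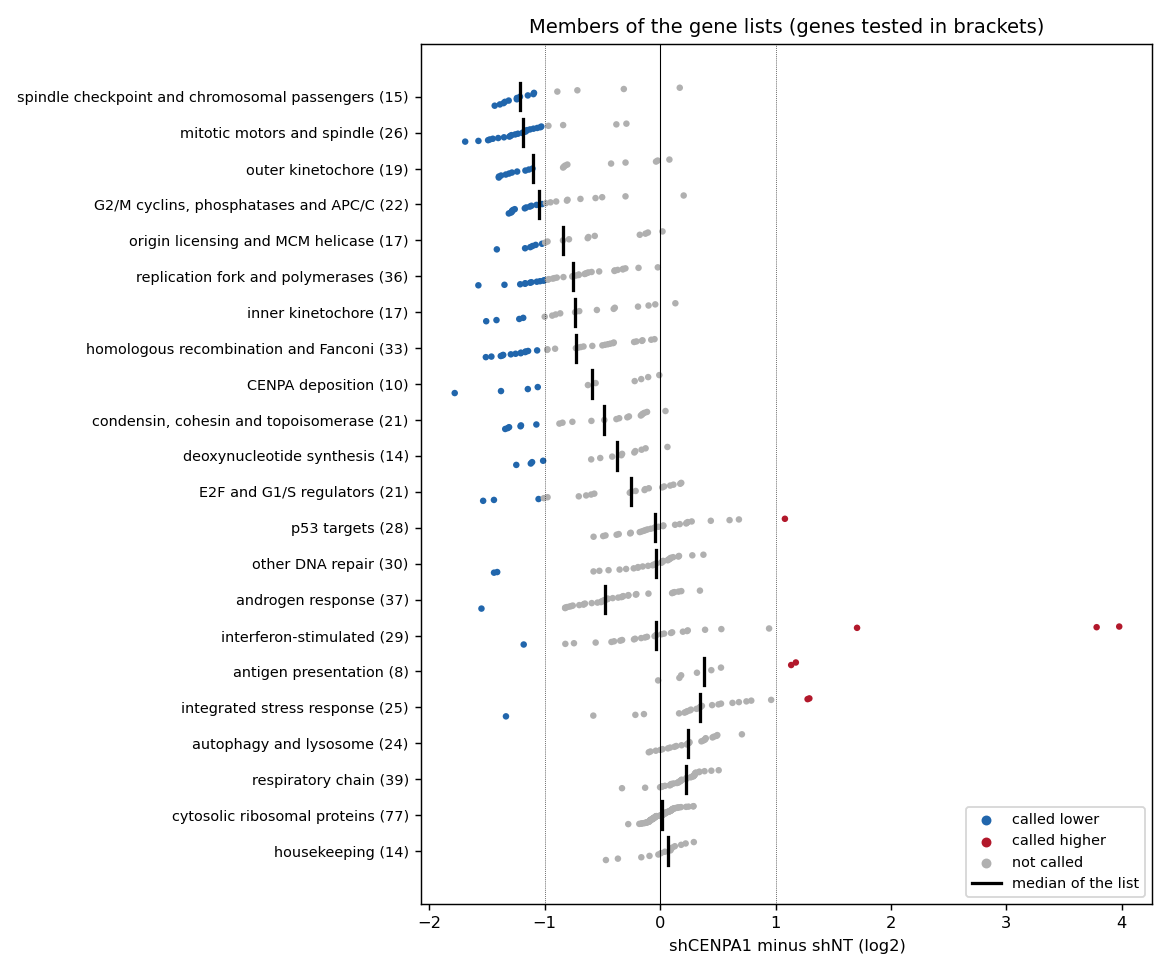
Each point is a tested member of a gene list, placed by its shCENPA1 minus shNT difference (log2), with called lower genes in blue, called higher genes in red and the list median as a black bar. The mitotic lists sit near -1, replication and recombination between 0 and -1, and the interferon list holds 3 outlying risers around a median of -0.035.

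Among genes that rose, 2 interferon-stimulated genes had the largest changes. OASL, a member of the oligoadenylate synthetase family, stood at -3.86 and -3.68 in shNT (26 and 23 reads) and at 0.21 and 0.21 in shCENPA1 (328 and 420 reads), a difference of 3.98 ± 0.33 (limma adjusted p = 0.000195). IFI44 stood at -2.87 and -3.72 in shNT (31 and 13 reads) and at 0.26 and 0.72 in shCENPA1 (196 and 346 reads), a difference of 3.78 ± 0.35 (limma adjusted p = 0.000301). Both held with each library left out. The IFI44 promoter is shown as the only called riser of this list with an ISRE core and a RefSeq promoter, at chr1:78649539-78649838 (GRCh38.p14, plus strand), with 2 cores in capitals that begin 121 and 18 bases before the start.
IFI44: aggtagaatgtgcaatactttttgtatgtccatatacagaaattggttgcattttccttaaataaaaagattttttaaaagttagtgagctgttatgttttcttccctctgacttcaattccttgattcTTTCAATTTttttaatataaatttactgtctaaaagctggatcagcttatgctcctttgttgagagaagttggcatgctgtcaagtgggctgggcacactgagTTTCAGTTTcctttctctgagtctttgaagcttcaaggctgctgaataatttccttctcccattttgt
IFIT2 differed by 1.71 ± 0.32, but its call was lost without either shCENPA1 library (adjusted p = 0.103 and 0.108) or library 1 of shNT (0.0854). OAS3, of the same family as OASL, fell, from 1.94 and 2.04 to 0.94 and 0.68 (-1.18 ± 0.16, limma adjusted p = 0.00229). The list, with 46 genes of which 29 were tested, did not shift as a whole. Of its 29 tested members 3 rose, against 0.821% of all genes, and 1 fell. In shNT the means of OASL (-3.77) and IFI44 (-3.29) lay below the filter of -3, which was applied to the mean of all 6 libraries. Both genes were tested only because they are high with the CENPA-targeted shRNAs, so the share of risers is a description. The list median of -0.035 turned to 0.00010 with quantile normalization and to 0.050 without library 2 of shCENPA1.

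In antigen presentation 2 of 8 tested genes of 17 listed rose, against 0.821% of all genes. HLA-C, which presents peptides to T cells, went from 3.32 and 3.14 to 4.24 and 4.49 (1.14 ± 0.13, limma adjusted p = 0.00081), and HLA-B from 0.90 and 0.92 to 1.98 and 2.19 (1.18 ± 0.15, limma adjusted p = 0.00134). Of the 8 tested members 7 lay above 0 (median 0.38), and no other member was at an adjusted p under 0.05. HLA genes resemble each other closely, so reads may be split between them.

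Stress genes rose in part. CHAC1, which degrades glutathione, went from 2.57 and 2.51 to 3.82 and 3.82 (1.28 ± 0.11, limma adjusted p = 0.000247), and STC2, a secreted glycoprotein, from 0.26 and 0.15 to 1.496 and 1.501 (1.29 ± 0.14, limma adjusted p = 0.000659). Within the integrated stress response list 21 of 25 genes lay above 0 (median 0.35) and 10 were higher at an adjusted p under 0.05 without the fold limit, while SLC7A5, also on it, fell. NQO1, a quinone reductase of the oxidative stress response, went from 3.16 and 3.09 to 4.69 and 4.80 (1.62 ± 0.09, limma adjusted p = 3.73e-05), the only called gene of 17 on its list. GDF15, a stress-induced hormone, went from 4.24 and 4.03 to 5.21 and 5.23 (1.08 ± 0.11), and slipped under 2-fold without library 2 of shNT (0.98, adjusted p = 0.00115). PMAIP1, a killer of the BCL2 family, differed by 0.93 ± 0.11 (limma adjusted p = 0.000861), short of 2-fold. PTGS2, a prostaglandin synthase, rose by 1.37 ± 0.20.

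Other genes with large rises or high levels were in no common list. NPY, a neuropeptide, went from 2.26 and 2.25 to 4.01 and 4.05 (1.77 ± 0.10, limma adjusted p = 3.73e-05), at chr7:24284188-24291862 (GRCh38, plus strand). CEND1, a neuronal gene, went from 0.83 and 0.42 to 2.40 and 2.66 (1.91 ± 0.19). LDOC1 was the most abundant riser, from 5.23 and 5.17 to 6.50 and 6.60 (1.36 ± 0.09, limma adjusted p = 9.21e-05), and PDE9A, a phosphodiesterase of cyclic GMP, rose from 3.86 and 3.82 to 4.85 and 5.01 (1.09 ± 0.09). FXYD5 (1.90), LRRC4B (1.797), GFY (1.67) and AP000593.7 (1.61) rose from lower levels. All 4 of these calls were lost without library 2 of shCENPA1 (adjusted p = 0.08, 0.0599, 0.0965 and 0.0965), and those of FXYD5 and GFY also without library 1 (0.056 and 0.0563). The antisense transcript CDR1-AS was also among the largest risers, but its symbol had no match in GENCODE 44 and no value is given.

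Few lipid, androgen response, ribosomal protein and respiratory chain genes were called. Beside SCD, the sterol-regulated genes SREBF1, a transcription factor of lipid synthesis (-0.80 ± 0.14, limma adjusted p = 0.00878), and INSIG1, its retention factor (-0.64 ± 0.10, 0.00488), were lower by p but not by fold, and 0 of 29 cholesterol genes were called by limma or by voom, with 10 at an unadjusted p under 0.05. Without the fold limit 6 of these 29 were lower at a limma adjusted p under 0.05. The androgen response list had 31 of 37 genes below 0, a median of -0.47 and 15 lower genes without the fold limit. Its only call, SLC38A4 (-1.55), was lost without any one of the 4 libraries (adjusted p = 0.1 to 0.168). The cytosolic ribosomal proteins had 0 of 77 called by limma or by voom, 2 at an unadjusted p under 0.05, and a median of 0.015, which turned to -0.035 with quantile normalization and to -0.12 without library 2 of shCENPA1. In the respiratory chain 36 of 39 genes lay above 0 (median 0.22), with none called by limma or by voom and 15 higher at an unadjusted p under 0.05. Autophagy and lysosome genes had 21 of 24 above 0 (median 0.25), 5 of them higher without the fold limit, led by CTSL, a lysosomal protease (0.71 ± 0.10, limma adjusted p = 0.00277).

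Genes of growth factor signalling and of the Wnt pathway were called singly. IGFBP3, which binds insulin-like growth factors, went from 6.53 and 6.38 to 5.01 and 5.03 (-1.43 ± 0.17, limma adjusted p = 0.00115). Its relative IGFBP5 differed by -2.18 ± 0.33 and the receptor FGFR4 by -1.54 ± 0.27, calls that were lost without library 2 of shCENPA1 (adjusted p = 0.0643 and 0.0884), and for FGFR4 also without library 1 (0.0694) or without library 1 of shNT (0.0983). These were 3 of 22 genes on the list of receptor tyrosine kinases and ligands, whose median was -0.056. In the Wnt list of 28 genes AXIN2 fell beside FZD4 (-1.04 ± 0.16), a call lost without library 2 of shNT (-0.998, adjusted p = 0.0594) or of shCENPA1 (-0.93, adjusted p = 0.0529).

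The study had listed genes with CENPA over their first exon in VCaP, another prostate cancer line. Of the 350 names, 305 were tested here, of which 5 fell (1.64%, against 1.83% of all genes) and none rose, and the median was 0.025. The 5 were CENPU, XRCC2, TOP2A, CDC25C and CDCA5 (-1.07, lost without library 1 of shCENPA1 at -0.94, adjusted p = 0.0174). All 5 are among the 21 bound genes that are also on the cell division, replication and repair lists, which had a median of -0.50, and of the other 284 bound genes none was called by limma or by voom (median 0.033), with 53 at an unadjusted p under 0.05. The lists were written with earlier results of these data known, and the study names CENPU, TOP2A, CDC25C and CDCA5 as bound and lower. The split is therefore a description and was not tested. Peaks that the study placed in other regions were not used here.

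Markers of luminal and of neuroendocrine cells were both expressed. Of the luminal list, keratins KRT8 and KRT18 stood at 5.80 and 6.81 log2 RPKM in shNT and STEAP2 at 5.57, but the secreted proteases KLK3 and KLK2 at -0.48 and 0.41, SLC45A3 at 1.48 and TMPRSS2 at 1.95, and the summed RPKM of the 11 luminal markers ranged from 923 to 949 in shNT and from 910 to 944 in shCENPA1, with none of the 11 called by limma or by voom and 6 at an unadjusted p under 0.05. The basal markers KRT5, KRT14, KRT15 and TP63 had no value analysed here, and of the 3 basal markers tested of 8 none was called by limma or by voom, with 2 at an unadjusted p under 0.05. Of 13 neuroendocrine markers 8 were tested, of which ENO2 (5.77), SCG3 (5.13), CHGB (4.94) and SYP (4.50) had levels above 4 log2 RPKM in shNT, and CHGA, the granule protein chromogranin A, rose from -2.01 and -2.19 to -0.20 and 0.12 (2.06 ± 0.24, limma adjusted p = 0.000968). The summed level of those 8 ranged from 157 to 162 RPKM in shNT and from 154 to 170 in shCENPA1. At an unadjusted limma p under 0.05, 3 of the 8 were lower, ENO2 (-0.39), SCG2 (-0.67) and POU3F2 (-0.27). By the same limit 2 were higher, CHGA and CHGB (0.41). CHGA rests on 83 and 57 reads in shNT. Of 12 stromal markers 4 were tested, of which DCN, a matrix proteoglycan, rose from -2.90 and -3.19 to -1.18 and -1.05 (1.93 ± 0.27), a call lost without library 2 of shCENPA1 (adjusted p = 0.0595). The shNT mean of DCN (-3.05) lay below the filter of -3 on the mean of all libraries. Of the other stromal markers tested, LUM (-0.41) and ACTA2 (-0.12) lay below 0 and COL1A1 (0.09) above it, and none of these was called. Of 10 immune markers 1 was tested, and it was not called.

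Where shCENPA1 differed from shCENPA2 was tested directly in the same fit, by a contrast that does not use shNT. Of 14624 genes 107 differed (0.732%), 81 lower and 26 higher with shCENPA2, and the count fell to 22 without library 2 of shCENPA1 and 42 without library 1, and rose to 224 without library 1 of shCENPA2. Only 21 of the 388 genes called with shCENPA1 were among them, and 48 of the other 86 lay within 0.5 of 0 with shCENPA1. OASL rose further with shCENPA1, at 0.21 and 0.21 with shCENPA1 and -1.82 and -2.63 with shCENPA2 (difference -2.44 ± 0.33, limma adjusted p = 0.00809), and was also called against shNT with shCENPA2 (1.54, limma adjusted p = 0.0105). NPY, at 4.01 and 4.05 with shCENPA1, was lower by 1.44 with shCENPA2 (limma adjusted p = 0.000289), where it was not called against shNT (0.33). DDX60, another interferon-stimulated gene but not on the interferon list, rose by 1.47 with shCENPA1. It was lower by 1.07 with shCENPA2 than with shCENPA1 (limma adjusted p = 0.0332). PERP, a desmosome protein, stood at 5.71 and 5.68 in shNT, at 4.02 and 4.13 with shCENPA1 and at 5.04 and 5.18 with shCENPA2 (1.03 ± 0.09, limma adjusted p = 0.00117). LRRC36 fell further with shCENPA1, to -2.78 and -2.73 against -0.65 and -0.81 with shCENPA2, which was also called against shNT (-1.46, limma adjusted p = 0.0023).

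PKP1, a plaque protein of desmosomes, went in opposite directions. It stood at -0.59 and -1.07 in shNT, at 0.33 and 0.26 with shCENPA1 and at -2.62 and -2.67 with shCENPA2, and the shRNAs differed by -2.95 ± 0.25 (limma adjusted p = 0.000819). Its rise with shCENPA1 was not called without either shCENPA1 library (adjusted p = 0.115 and 0.158) or library 2 of shNT (0.319). In the other direction IGFBP3 was lower by 1.77 with shCENPA2 than with shCENPA1, and SLC17A7, a transporter of glutamate into vesicles, was higher by 1.67, with both shRNAs called against shNT. Some large differences fell on genes that shCENPA1 left near shNT. ALDH1A1, an enzyme of retinoic acid synthesis, stood at 2.89 and 2.93 in shNT and 2.98 and 3.09 with shCENPA1 but 0.36 and 0.68 with shCENPA2, and SPINK1, a protease inhibitor, at 3.71 and 3.74, 3.61 and 3.87, and 1.57 and 1.69. In others shCENPA1 had moved the gene as well, as in PKP1 and OASL above. ZBTB18, a transcriptional repressor, stood at -1.24 and -1.505 in shNT, -0.60 and -0.90 with shCENPA1 and 2.36 and 2.59 with shCENPA2.

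**Figure D5:**
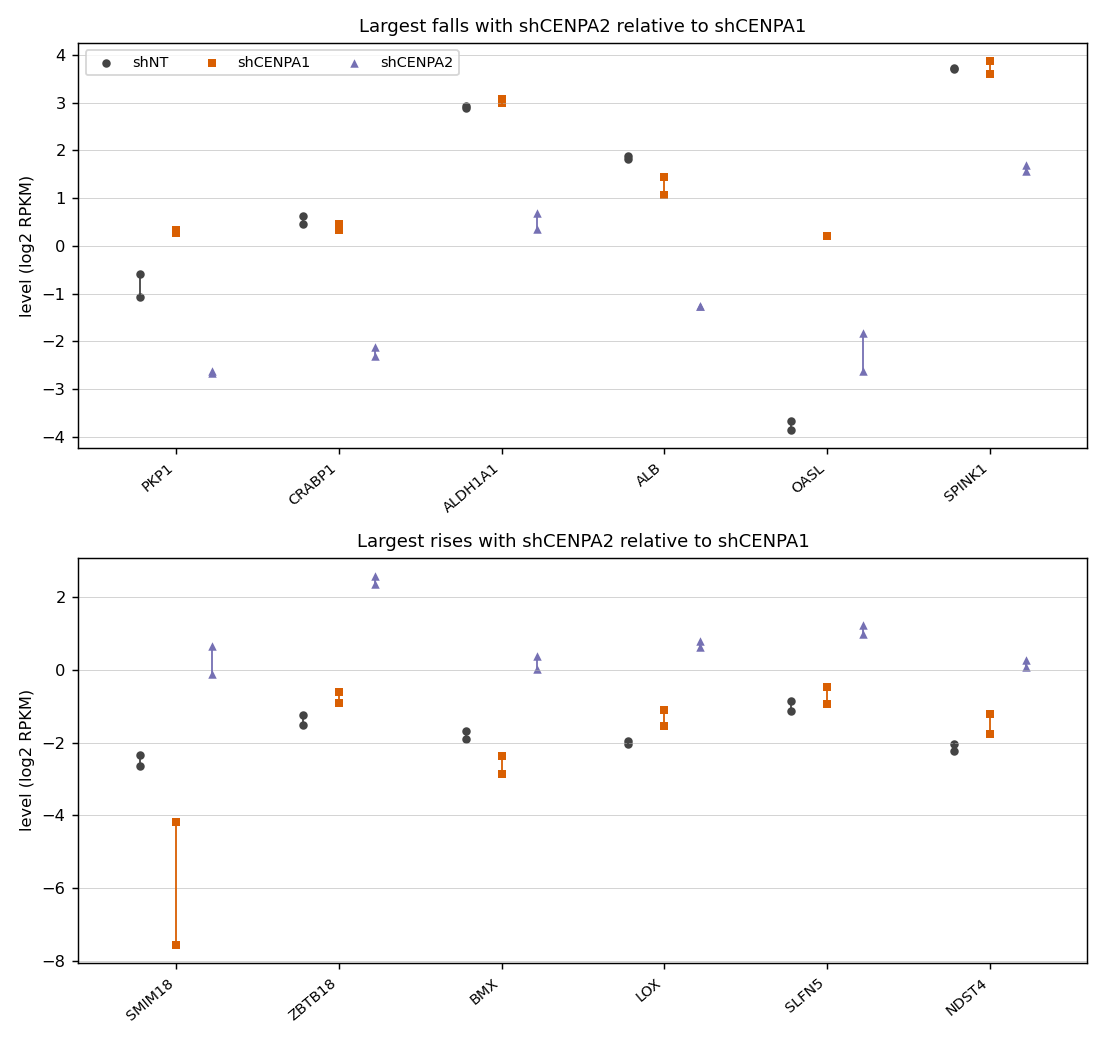
Levels (log2 RPKM) of the genes with the largest differences between the shRNAs, with 1 point per library for shNT (circles), shCENPA1 (squares) and shCENPA2 (triangles). ALDH1A1, SPINK1 and CRABP1 sit with shNT under shCENPA1, whereas OASL and PKP1 stand above shNT there.

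The mitotic and replication lists lay lower with shCENPA2 than with shCENPA1, though no single member of them was called, which needs a 2-fold difference. Some passed on p and missed on fold, such as NUF2 (-0.69, limma adjusted p = 0.0274) and RRM2 (-0.465, limma adjusted p = 0.0406). With shCENPA1 and shCENPA2 the list medians were -1.19 and -1.61 for mitotic motors, -1.21 and -1.58 for the checkpoint, -0.76 and -1.10 for replication forks and -0.73 and -1.14 for recombination, against the same shNT libraries. Between the shRNAs, 0 members of these 4 lists were called by limma or by voom, while 15 of 26, 6 of 15, 13 of 36 and 9 of 33 were lower with shCENPA2 at an unadjusted p under 0.05. For androgen response they were -0.47 and -0.79. The cytosolic ribosomal proteins stood at 0.015 with shCENPA1 and -0.21 with shCENPA2.

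The shCENPA1 libraries differed from each other more than those of shNT. Over 13712 genes with at least 100 reads in both, the difference of library 2 from library 1 had an SD of 0.252, against 0.188 over 13919 genes in shNT, and 47 genes differed more than 2-fold, against 32. The shCENPA2 libraries differed more still, with an SD of 0.303 and 164 genes beyond 2-fold. In shCENPA1 the difference moved with gene length, with a median of 0.14 in the shortest 25% of genes and -0.13 in the longest 25%, where shNT had -0.035 and 0.025. PWAR5 (-2.05), NBEAL1 (-1.61), POMK (-1.56), ZNF727 (-1.496) and ZNF573 (-1.49) were the genes most depleted in library 2, and none was called against shNT in the full fit. NBEAL1, POMK, PWAR5 and ZNF573 were called when library 1 of shCENPA1 was left out. Of the 388 called genes, 358 had shCENPA1 libraries within 0.5 of each other and 4 had them more than 1 apart. The share within 0.5 was slightly lower than among the 13712 genes above, so it does not set the called genes apart. The part of length in the results was not tested.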

How the data were processed

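RNA-seq of 22Rv1 cells was analysed from 1 deposited table of log2 RPKM for 14828 genes in 12 runs. Per the labels and the study's methods, the authors used Trim Galore for trimming, STAR for alignment to hg38 and HTSeq for counting on genes, and scaled the counts to RPKM. Versions are not given in the sources used here. The deposited log2 values hold a prior of 0.25 reads, which draws folds of weakly expressed genes towards 0. In every gene of the table at least 3 runs reach 0.994 CPM, so a gene silent in most runs is not analysed here.

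The 2 lanes of each library were averaged, since lanes differed by 1.24 to 1.31 in chi-square per gene (sampling noise gives 1) and libraries of a group by 26.5 to 80.1. Genes with a mean of at least -3 log2 RPKM (14624) entered 1 linear model of all 6 libraries in limma 3.58.1 (R 4.3.3, moderated with a trend in the variance). A call needed a log2 difference beyond 1 and a Benjamini-Hochberg adjusted p under 0.05 over all genes tested. Fold changes are differences of group means with their SE. Whole reads were recovered from the steps of the values for 14828 of 14828 genes (100.0%, within 1e-05 reads) and gave the depths. Reads without molecular identifiers cover counting error only. On simulated data for 14598 genes in the shCENPA1 comparison, 92 of 99 genes changed by 2 (log2), 95 of 100 changed by 3 and 6 of 14399 left unchanged were called. Smaller changes were not simulated, so these rates do not cover changes between 1 and 1.5, where most calls lay.

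The named genes were the 10 largest changes and the 5 highest levels in each direction among called genes at 0 log2 RPKM or above, up to 4 called members of each list in each direction or else the 3 with the smallest p, the 6 largest differences between the shRNAs each way, the 5 largest between the shCENPA1 libraries each way, the genes the study names and the markers. Members called both against shNT and between the shRNAs (21) were added after their values were seen. Members and lists were chosen with earlier results of these data known, and the lists were written by hand, apart from the CENPA-bound genes, whose names come from the study. Positions are from GENCODE 44. Promoters are the first listed start of each gene in the RefSeq table, with motifs searched on both strands. AMACR was not analysed here. Alternatives covered filters, added constants, centring, quantile normalization, single lanes, a block for the library number, fewer groups, no trend, limma's voom on the recovered reads, other thresholds and each library left out.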

Additional observations from a re-analysis of the deposited data

Results flagged for a closer look

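The change from shNT differed between shCENPA1 and shCENPA2, by the direct test of the difference in limma, for 107 genes, and 21 of these were also called with shCENPA1 against shNT. The largest differences (shCENPA2 minus shCENPA1, log2) towards lower levels with shCENPA2 were those of PKP1 (-2.95), CRABP1 (-2.61), ALDH1A1 (-2.52), ALB (-2.50), OASL (-2.44) and SPINK1 (-2.11). Those towards higher levels were SMIM18 (6.15), ZBTB18 (3.22), BMX (2.81), LOX (2.03), SLFN5 (1.82) and NDST4 (1.68). SMIM18 rests on 0 and 5 reads in the shCENPA1 libraries and 16 and 17 in shNT. CRABP1, a binder of retinoic acid, stood at 0.63 and 0.45 in shNT, 0.45 and 0.34 with shCENPA1 and -2.32 and -2.11 with shCENPA2. ALB, which encodes albumin, stood at 1.83 and 1.89, 1.06 and 1.43, and -1.25 and -1.25. BMX, a tyrosine kinase, differed from shNT by -0.82 with shCENPA1, which did not pass, and by 2.00 with shCENPA2. Groups of 2 libraries are too small to test for a library that stands apart.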

How the results depend on the processing

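CENPA stayed called under all 18 alternatives, from -1.29 with 1 added to RPKM to -1.92 without library 2 of shNT (-1.64 to -1.92 with each library left out). Of the 388 calls, 193 held with each shNT and shCENPA1 library left out in turn. With each of the 6 libraries left out, where the lone library of a group is assumed to vary like the others, the counts were 252 to 427 genes called with shCENPA1 (195 to 296 lower, 57 to 131 higher), 22 to 224 between the shRNAs and 775 to 1074 with shCENPA2. With 1 added to RPKM they were 119 (104 lower, 15 higher), 17 between the shRNAs and 317 with shCENPA2, as the constant shrinks the folds of weakly expressed genes. With no limit on the fold change they were 1044 (651 lower, 393 higher), 208 and 2712. With a mean of at least 0 log2 RPKM there were 60 higher genes, 53 between the shRNAs and 529 with shCENPA2, from fewer genes tested. At an adjusted p under 0.01 there were 74 higher genes and 53 between the shRNAs. The replicate block gave 383 genes (265 lower, 118 higher), 95 between the shRNAs and 891 with shCENPA2. Same-numbered libraries did not deviate together (correlation -0.064 for shNT and shCENPA1), and the labels do not pair them. All other counts stayed within 1.5 times. Of 125 named called genes, 62 kept their call throughout, and 58 lost it with 1 added to RPKM. No named called gene changed sign. 2 libraries a group limit the precision more than depth does.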
